A study of Homo sapiens with 6 samples.

Results

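The genes described here are the zinc transporters of both families, the metallothioneins and the zinc sensor MTF1, measured in lenvatinib-resistant TPC-1 cells with a hairpin against KRT15. Members were the protein-coding rows of the count table whose symbol was SLC30A or SLC39A with a number, MT1 with a letter, MT2A or MTF1. This rule goes by name alone, and it was set with earlier results of these data known. There were 27 of them among 22681 rows: 9 SLC30A genes, 12 SLC39A genes, 5 metallothioneins and MTF1. SLC30A10, SLC39A2, SLC39A5, MT1A, MT1B, MT1G and MT1H had no row in the table and are not analysed here. Of the 27 members, 22 passed the filter on low counts and were tested.

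TPC-1 is a line from a human papillary thyroid carcinoma, and the resistant derivative TPC-1-Len was kept in 10 µM lenvatinib, an inhibitor of several receptor tyrosine kinases, in both groups. One group of cultures received an shRNA against the type I keratin gene KRT15 (shKRT15, n = 3) and the other a non-targeting shRNA (shNC, n = 3), both by liposomal transfection. Each group therefore rests on 1 hairpin in 1 cell line, with no drug-sensitive or untreated culture beside it. RNA was sequenced after mRNA purification, and the question was which genes differ when KRT15 is knocked down in resistant cells.

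Zinc is held at very low free levels in the cytosol. Proteins of the SLC30A family (ZnT) move zinc out of the cytosol, across the plasma membrane or into organelles, and proteins of the SLC39A family (ZIP) move it the other way. Metallothioneins are small cysteine-rich proteins that bind zinc, copper and cadmium, and MTF1 is the transcription factor that binds metal response elements when zinc is high and induces metallothionein genes and SLC30A1. Cytokines of the IL-6 family and glucocorticoids can also induce metallothioneins.

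The coding sequences of the 3 tested metallothioneins are shown because cysteine codons make up so much of them and because their likeness bears on how reads could be assigned. They come from GENCODE release 29 (GRCh38), plus strand, and cysteine codons (TGC or TGT, in frame) are in capitals.
MT2A coding sequence: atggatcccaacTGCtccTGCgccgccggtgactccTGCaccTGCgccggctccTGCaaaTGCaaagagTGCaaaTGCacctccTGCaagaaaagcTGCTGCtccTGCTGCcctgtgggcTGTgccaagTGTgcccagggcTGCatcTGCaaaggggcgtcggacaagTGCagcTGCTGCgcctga
MT1X coding sequence: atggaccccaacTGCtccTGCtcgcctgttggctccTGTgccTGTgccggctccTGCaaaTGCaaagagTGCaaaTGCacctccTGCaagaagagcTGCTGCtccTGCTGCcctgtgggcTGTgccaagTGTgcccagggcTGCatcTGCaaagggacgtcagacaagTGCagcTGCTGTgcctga
MT1F coding sequence: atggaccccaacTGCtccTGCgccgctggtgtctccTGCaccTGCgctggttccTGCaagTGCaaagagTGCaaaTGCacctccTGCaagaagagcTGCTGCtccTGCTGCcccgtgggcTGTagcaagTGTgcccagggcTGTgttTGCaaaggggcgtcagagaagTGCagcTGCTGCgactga
Each has 61 codons before the stop, 20 of them for cysteine, over 3 coding exons. MT2A and MT1X differ at 14 of 186 coding bases, MT2A and MT1F at 16, and MT1X and MT1F at 21. All 3 genes lie in the metallothionein cluster of chromosome 16, MT2A at chr16:56608199-56609497, MT1F at chr16:56657694-56660698 and MT1X at chr16:56682424-56684196. Some 50-base windows of the principal transcript also occur in a transcript of another GENCODE gene. Their share was 4.88% for MT2A, 3.59% for MT1F and 45.1% for MT1X. The annotation used in counting is not given in the sources used here, so the effect on the assignment of reads was not tested.

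Promoters of 4 members are shown because MT2A, MT1X and SLC30A1 are known targets of MTF1 and because SLC30A4 had the largest fold change among the tested members. They are RefSeq promoters (GRCh38.p14), 250 bases before to 50 bases after the annotated start, on the strand of the gene. Capitals mark the core of the metal response element, searched as TGCACNC or TGCGCNC on both strands.
MT2A promoter: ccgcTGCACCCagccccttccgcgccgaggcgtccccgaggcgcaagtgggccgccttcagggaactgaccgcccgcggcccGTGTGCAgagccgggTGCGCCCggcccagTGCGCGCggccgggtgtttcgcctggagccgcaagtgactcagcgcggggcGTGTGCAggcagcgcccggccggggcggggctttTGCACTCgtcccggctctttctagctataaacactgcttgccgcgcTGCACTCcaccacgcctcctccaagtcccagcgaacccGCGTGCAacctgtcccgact
MT1X promoter: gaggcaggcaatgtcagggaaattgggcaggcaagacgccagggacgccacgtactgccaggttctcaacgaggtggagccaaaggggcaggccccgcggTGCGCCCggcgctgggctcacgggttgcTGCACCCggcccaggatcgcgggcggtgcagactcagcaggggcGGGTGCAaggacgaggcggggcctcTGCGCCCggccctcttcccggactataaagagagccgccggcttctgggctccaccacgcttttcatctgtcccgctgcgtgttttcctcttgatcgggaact
SLC30A1 promoter: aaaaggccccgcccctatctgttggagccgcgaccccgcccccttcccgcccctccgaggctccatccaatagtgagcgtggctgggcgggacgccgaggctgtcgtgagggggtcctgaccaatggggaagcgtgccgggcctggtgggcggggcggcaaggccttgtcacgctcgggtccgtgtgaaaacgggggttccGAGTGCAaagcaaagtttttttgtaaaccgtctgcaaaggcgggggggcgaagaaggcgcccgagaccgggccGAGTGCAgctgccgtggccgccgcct
SLC30A4 promoter: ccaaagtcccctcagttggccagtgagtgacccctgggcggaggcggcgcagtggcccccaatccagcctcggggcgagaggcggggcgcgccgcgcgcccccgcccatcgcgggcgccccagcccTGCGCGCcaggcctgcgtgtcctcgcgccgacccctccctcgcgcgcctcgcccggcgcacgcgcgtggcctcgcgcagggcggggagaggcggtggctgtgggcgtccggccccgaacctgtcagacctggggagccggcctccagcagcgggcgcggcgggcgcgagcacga
The MT2A promoter (chr16:56608334-56608633, plus strand) held 8 matches, which did not overlap each other. The MT1X promoter (chr16:56682220-56682519, plus strand) held 4 matches. The SLC30A1 promoter (chr1:211579112-211579411, minus strand) held 2 matches and the SLC30A4 promoter (chr15:45522706-45523005, minus strand) 1. Of 35116 RefSeq promoters of the same length, 29.6% held at least 1 match, 8.60% at least 2, 0.601% at least 4 and 0.0199% at least 8. These shares are not matched for base composition. The GC content was 67.0 to 79.7% in the 4 promoters shown, against a median of 58.7% over all promoters. Among the members searched, 21 had a promoter entry, with 28 entries in all, and 13 of these members had a match in an entry. MT1E, MT1F and MT1M had no entry in the promoter table used here. SLC30A8, SLC39A4 and SLC39A14 were left out of the search, so whether they have an entry or a match was not tested.

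**Figure D1:**
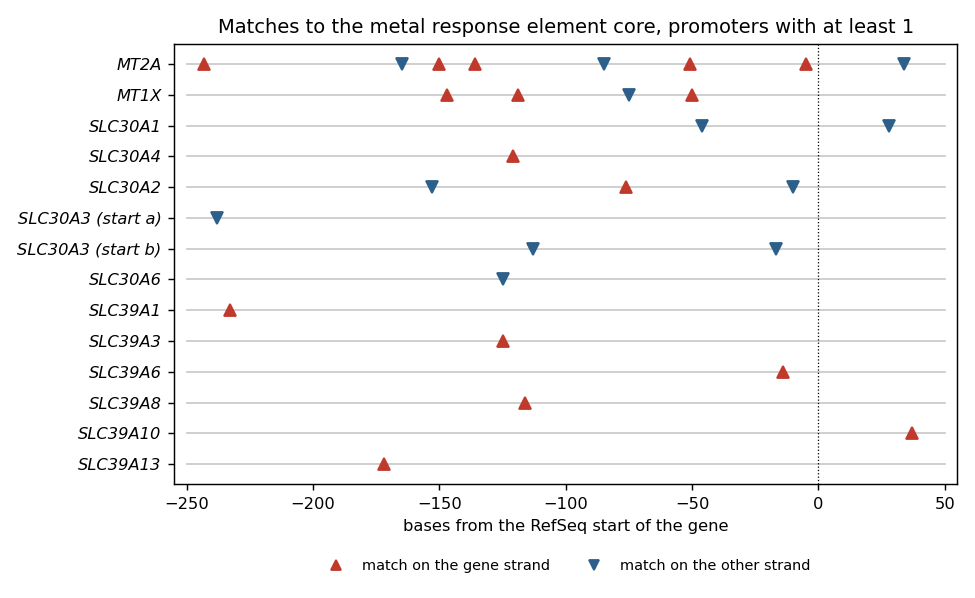
Positions of matches to the core of the metal response element in RefSeq promoters of members with at least 1 match, in bases from the annotated start; triangles pointing up are matches on the strand of the gene and triangles pointing down are on the other strand. MT2A has 8 matches and MT1X 4, and every other promoter drawn has 1 to 3. Members on chromosome 8 were not searched.

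The libraries held 39868231 to 41343780 counted reads in shKRT15 and 36286059 to 36808695 in shNC. Mitochondrially encoded genes took 4.86 to 6.54% of reads in shKRT15 and 4.99 to 5.24% in shNC. KRT15 itself was at 25.01, 24.3 and 24.9 CPM (counts relative to the TMM-scaled size of the library) in the shKRT15 libraries and at 28.7, 31.9 and 36.2 CPM in the shNC libraries. The targeted gene was thus lower in every shKRT15 library, with a log2 fold change of -0.38 ± 0.10 (SE; edgeR quasi-likelihood test, Benjamini-Hochberg adjusted p = 0.00465), a modest knockdown at the RNA level. Thyroid and epithelial markers were mixed: PAX8, FOXE1, HHEX, KRT8, KRT18 and KRT7 were well counted. NKX2-1 and TSHR had 0 reads in every shKRT15 library and at most 1 in an shNC library, and EPCAM and CDH1 had at most 5 reads in any library. TG had 28 to 41 reads in the shKRT15 libraries and 34 to 76 in the shNC libraries. The groups overlapped for TG, which was not called (-0.97, adjusted p = 0.0512). The 5 epithelial markers with a row summed to 248 to 259 CPM in shKRT15 and 147 to 161 CPM in shNC, most of it KRT18 (log2 fold change 0.89, adjusted p = 1.37e-08), while KRT7 and KRT8 were not called. The 6 fibroblast markers summed to 7.67 to 8.45 CPM in shKRT15 and 17.7 to 23.2 CPM in shNC, and the 5 leukocyte markers to 52.6 to 69.6 CPM in shKRT15 and 87.8 to 90.4 CPM in shNC, most of it CD68. Of the fibroblast markers, COL1A1 (-1.52, adjusted p = 1.34e-06) and LUM (-2.77, adjusted p = 6.76e-08) fell and PDGFRB rose (1.05, adjusted p = 0.00337). COL1A2, COL3A1 and DCN were under the filter. COL1A2 had 0 reads in every shKRT15 library and 1 to 7 in the shNC libraries. COL3A1 had 0 to 1 reads in the shKRT15 libraries and 4 to 11 in the shNC libraries, and the groups overlapped for DCN. Of the leukocyte markers, CD68 (-0.56, adjusted p = 0.000106) and LYZ (-3.40, adjusted p = 0.00266) fell. LYZ rested on few reads, at most 5 in an shKRT15 library and 15 to 24 in the shNC libraries. PTPRC, which defines leukocytes, was under the filter, with 0 reads in every shKRT15 library and 5 to 21 in the shNC libraries. CD3E and CD14 were also under the filter, and their groups overlapped. Of the endothelial markers with a row, PECAM1 was not called (0.62, adjusted p = 0.230) and VWF and KDR were under the filter. The groups overlapped for each of them. The part of these differences in the results below was not tested.

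Most members that changed fell. Of 22 tested members, 1 rose (SLC30A4) and 10 fell in shKRT15 and 11 were not called, against 45.0% of all 14356 tested genes called in either direction by the same test. Calls in a single direction made up 22.1% of all genes for rises and 23.0% for falls. The median log2 fold change of the 22 tested members was -0.18, and that of all tested genes -0.0013. The groups did not overlap in CPM for 12 of the 22 members, 2 higher and 10 lower, against 54.0% of all tested genes. By direction, 26.9% of all tested genes were higher without overlap and 27.1% lower. Called changes of at least 2-fold were found for MT2A and SLC30A4 among the members and for 8.95% of all tested genes. By family, the metallothioneins had 2 lower and 1 not called, the ZnT genes 1 higher, 3 lower and 3 not called, and the ZIP genes 5 lower and 6 not called. In bulk libraries, fewer cells with a transcript and less of it per cell cannot be told apart.

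**Figure D2:**
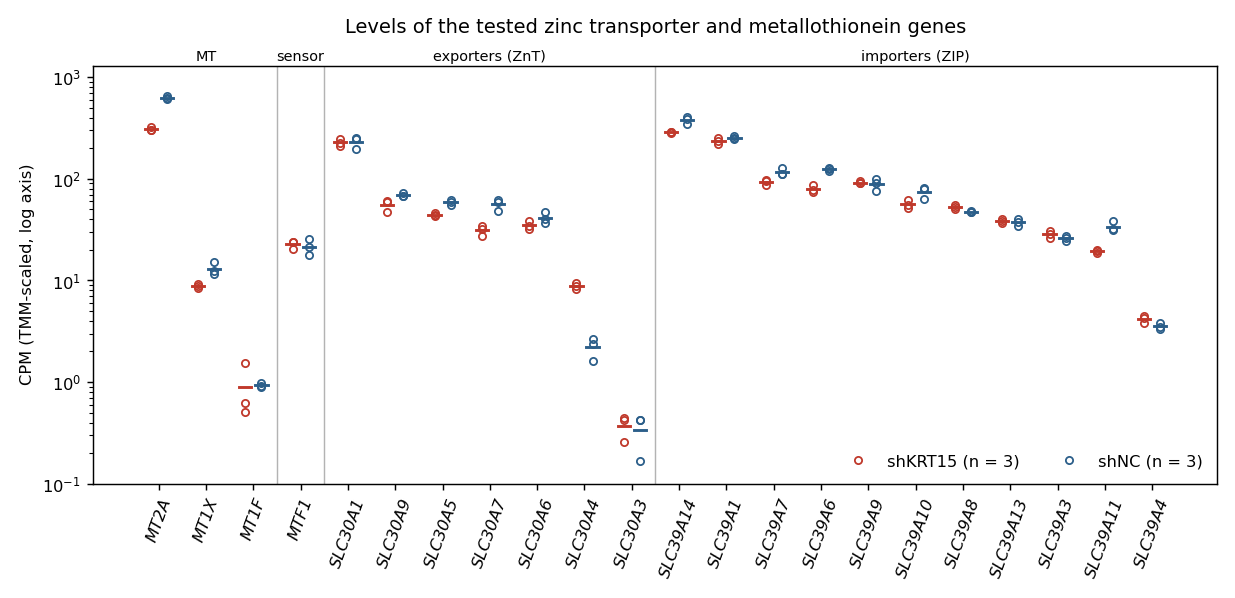
CPM on a log axis for each library (circles) and the group mean (bars) of the 22 tested members, shKRT15 left of shNC for each gene, ordered by family and mean level. The shKRT15 libraries of MT2A all lie below its shNC libraries, and those of SLC30A4 all lie above those of its shNC libraries.

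**Figure D3:**
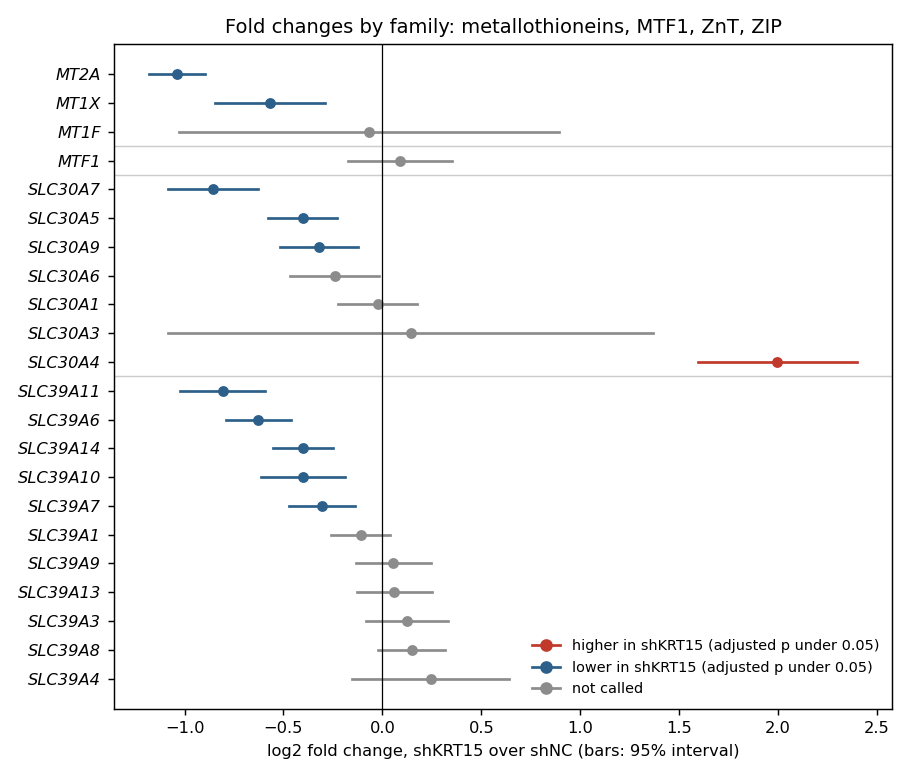
Log2 fold change of shKRT15 over shNC with its 95% interval for the 22 tested members, by family from top to bottom; red is called higher, blue called lower and grey not called. SLC30A4 stands alone on the right at 2.00, and the lowest value is that of MT2A at -1.04.

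MT2A, the most abundant metallothionein in these cells, fell in all 3 shKRT15 libraries. It had 322, 299.6 and 301 CPM in the shKRT15 libraries and 631, 648 and 615 CPM in the shNC libraries. The groups lay far apart, with a gap much wider than the spread within either. The means were 308 ± 12.3 CPM in shKRT15 and 631 ± 16.5 CPM in shNC (SD, n = 3 each). The log2 fold change was -1.04 ± 0.07 (SE, adjusted p = 1.87e-09), a change of -51.3% with a 95% interval of -55.9 to -46.3%. By p-value MT2A ranked 150 among all tested genes, the highest rank of any member.

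MT1X fell as well, by less. It had 8.79, 8.34 and 9.15 CPM in the shKRT15 libraries and 12.3, 15.04 and 11.5 CPM in the shNC libraries, again without overlap. Its log2 fold change was -0.57 ± 0.13 (SE, adjusted p = 0.00205). The number of MT2A reads per MT1X read was 32.9 to 36.6 in shKRT15 and 43.1 to 53.3 in shNC, lower in every shKRT15 library. The log2 ratio differed by -0.48 (two-sided exact permutation test, p = 0.1, the smallest that 3 libraries against 3 allow).

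MT1F was not called and rested on few reads, with 21, 27 and 62 reads in the shKRT15 libraries and 33, 35 and 32 in the shNC libraries. The third shKRT15 library was above and the other two below all shNC libraries. The log2 fold change was -0.07 with a 95% interval of -1.03 to 0.90 (adjusted p = 0.922), and it was -0.70 without that library. MT1E had 0 reads over the shKRT15 libraries and 1 over the shNC libraries, and MT1M 1 and 0, both under the filter. MT2A made up 97.0 ± 0.329% of all metallothionein reads in shKRT15 and 97.8 ± 0.229% in shNC (SD, n = 3 each). Summed over the 5 genes, metallothionein transcripts reached 309 to 331 CPM in shKRT15 and 628 to 664 CPM in shNC.

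**Figure D4:**
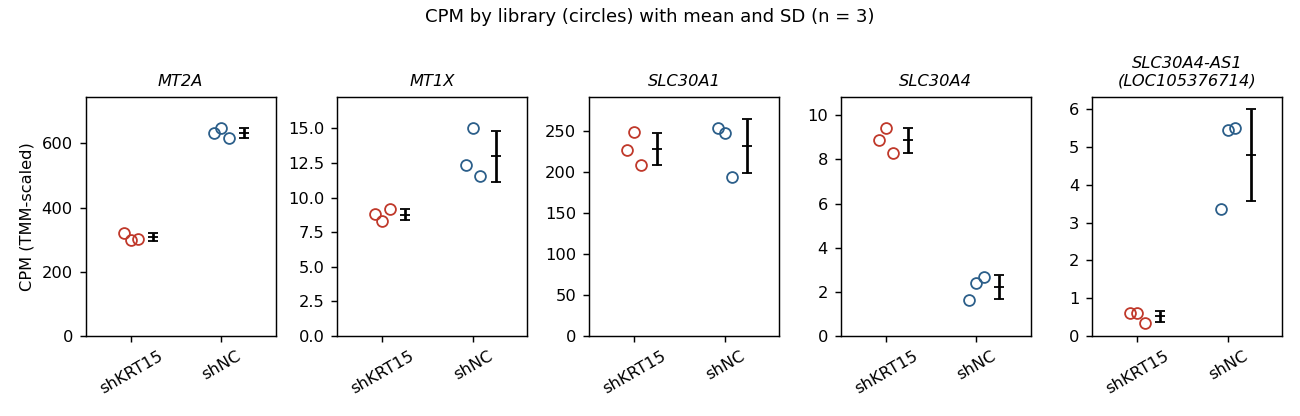
CPM in each library (circles) with the mean and SD (n = 3) for MT2A, MT1X, SLC30A1, SLC30A4 and the antisense gene SLC30A4-AS1, shKRT15 left of shNC, each on its own linear axis from 0. The groups are apart for MT2A, MT1X, SLC30A4 and SLC30A4-AS1, in opposite directions for the last pair, and overlap for SLC30A1.

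The sensor and its transporter target stood near their control levels. MTF1 (chr1:37809567-37859620) had 20.6, 24.1 and 23.7 CPM in the shKRT15 libraries and 25.6, 21.1 and 17.7 CPM in the shNC libraries. The log2 fold change of MTF1 was 0.09 with a 95% interval of -0.18 to 0.35 (adjusted p = 0.598). SLC30A1 (ZnT1, chr1:211571568-211578742), the exporter at the plasma membrane and the most abundant ZnT transcript here, had 228, 249 and 209 CPM in the shKRT15 libraries and 254, 248 and 195 CPM in the shNC libraries. For both genes the groups overlapped. The log2 fold change of SLC30A1 was -0.02 with a 95% interval of -0.23 to 0.18 (adjusted p = 0.862). After correction for GC content and transcript length, in which each library's trend on both was removed, SLC30A1 was called higher (0.17, adjusted p = 0.0165).

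SLC30A4 (ZnT4), which loads zinc into endosomal and lysosomal vesicles, was the member that rose. It had 364, 405 and 335 reads in the shKRT15 libraries and 59, 85 and 94 in the shNC libraries. In CPM these were 8.89, 9.43 and 8.28 in shKRT15 and 1.63, 2.39 and 2.65 in shNC. The lowest shKRT15 library was well above the highest shNC library. The log2 fold change was 2.00 ± 0.19 (SE, adjusted p = 2.12e-07), or 3.99-fold higher, and 2.56% of all tested genes had a larger change in either direction. Even so, SLC30A4 stayed among the low members, below SLC30A5, SLC30A6, SLC30A7 and SLC30A9 in both groups per length.

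The gene on the opposite strand moved the other way. SLC30A4 lies at chr15:45479611-45522807 on the minus strand (GRCh38), and RefSeq places SLC30A4-AS1 (LOC105376714 in the count table) on the plus strand with 20443 bases of shared span. SLC30A4-AS1 was looked up for this overlap after the values of SLC30A4 were seen. It had 25, 26 and 14 reads in the shKRT15 libraries and 122, 194 and 195 in the shNC libraries. Its level was therefore low in every shKRT15 library, with a log2 fold change of -3.18 ± 0.31 (SE, adjusted p = 2.14e-07). The shared span includes introns. Of the 50-base windows of the SLC30A4 transcript, 2.93% also occur, on either strand, in a transcript of another GENCODE gene. Whether strand was used in counting is not given in the sources used here. Reads from sequence that both genes keep in their transcripts therefore cannot be told apart. The same limit holds for any such sequence of SLC30A7, whose span overlaps that of DPH5 (log2 fold change 0.18, adjusted p = 0.147). It also holds for SLC39A1, whose span overlaps that of CREB3L4 by 698 bases (0.31, adjusted p = 0.142). The share of windows found in another GENCODE gene was 0.433% for SLC30A7 and 71.3% for SLC39A1. SLC30A3 and SLC30A8 overlap DNAJC5G and LOC105375716, which had at most 6 reads in a library. HMGN2P46, on the plus strand as well, also overlaps SLC30A4, and it had no row in the table analysed here.

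Transcripts of the ZnT genes of the early secretory pathway were lower or were not called. SLC30A7 (ZnT7, chr1:100896076-100981753), which fills the Golgi with zinc for secreted and membrane enzymes, had 31.8, 34.2 and 27.2 CPM in the shKRT15 libraries and 59.5, 61.4 and 47.8 CPM in the shNC libraries. Each shKRT15 value was under every shNC value, and the log2 fold change was -0.86 ± 0.11 (SE, adjusted p = 6.41e-06). SLC30A5 (ZnT5, chr5:69093646-69131069) had 46.1, 44.3 and 43.1 CPM in the shKRT15 libraries and 62.5, 58.6 and 55.5 CPM in the shNC libraries. It fell by 0.40 ± 0.08 on the log2 scale (adjusted p = 0.000701), with -0.24 after GC and length correction. Its partner in a shared heterodimer, SLC30A6 (ZnT6), was at 38.9, 34.2 and 31.9 CPM in the shKRT15 libraries and 47.3, 40.4 and 36.4 CPM in the shNC libraries. These overlapped and were not called (-0.24 ± 0.11, adjusted p = 0.0759), and the value was -0.0293 after GC and length correction (adjusted p = 0.797).

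SLC30A9 (ZnT9, chr4:41990472-42090457), a mitochondrial zinc exporter, fell slightly. It had 58.9, 60.3 and 47.1 CPM in the shKRT15 libraries and 72.2, 68.0 and 67.7 CPM in the shNC libraries. The third shKRT15 library was the lowest of all. The log2 fold change was -0.32 ± 0.09 (SE, adjusted p = 0.00978), and the call was lost without that library (-0.21, adjusted p = 0.0598) and under total-count scaling (-0.26, adjusted p = 0.0538). The value was -0.18 after GC and length correction. SLC30A3, the transporter of synaptic vesicles, had 11 to 18 reads in the shKRT15 libraries and 6 to 15 in the shNC libraries and was not called. SLC30A2, of secretory vesicles, had 1 read over the shKRT15 libraries and 0 over the shNC libraries, and SLC30A8, of insulin granules, had 2 and 5.

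Among the ZIP genes, 5 of 11 tested fell and 0 rose in the edgeR test, against 23.0% of all tested genes lower and 22.1% higher. The count of rises was also 0 at an unadjusted p under 0.05 and with DESeq2 and limma-voom, and SLC39A8 was called higher under total-count scaling (0.21, adjusted p = 0.0444). SLC39A11 (ZIP11, chr17:72645949-73092712), an importer of intracellular membranes, had the largest fall, with 18.6, 20.0 and 19.4 CPM in the shKRT15 libraries and 31.4, 38.1 and 31.8 CPM in the shNC libraries. The shKRT15 values lay close together and under all shNC values (-0.81 ± 0.10 on the log2 scale, SE, adjusted p = 5.75e-06). SLC39A6 and SLC39A10, whose proteins pair in an importer of the plasma membrane, both fell. SLC39A6 (chr18:36108532-36129385) had 77.8, 87.7 and 75.0 CPM in the shKRT15 libraries and 128, 124 and 118 CPM in the shNC libraries (-0.63 ± 0.08, SE, adjusted p = 4.80e-06). SLC39A10 (chr2:195575977-195737702) had 55.6, 62.6 and 51.2 CPM in the shKRT15 libraries and 79.4, 80.7 and 63.4 CPM in the shNC libraries (-0.40 ± 0.10, SE, adjusted p = 0.00365). The highest shKRT15 value of SLC39A10 came within 1 CPM of its lowest shNC value, and its log2 fold change was -0.20 after GC and length correction.

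SLC39A14 (ZIP14, chr8:22367249-22434129), which carries zinc, iron and manganese and is induced by IL-6 in the liver, fell as well. It had 286, 285 and 289.5 CPM in the shKRT15 libraries and 403, 387 and 347 CPM in the shNC libraries. The shKRT15 libraries were nearly level and below each shNC library (-0.40 ± 0.07, SE, adjusted p = 0.000199). SLC39A7 (ZIP7, chr6:33200445-33204439), which releases zinc from the endoplasmic reticulum, had 96.1, 88.0 and 98.3 CPM in the shKRT15 libraries and 111, 111 and 127 CPM in the shNC libraries (-0.30 ± 0.08, SE, adjusted p = 0.00447).

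SLC39A8 (ZIP8), a close relative of SLC39A14 that also carries manganese and cadmium, was not called. It had 54.7, 53.0 and 50.2 CPM in the shKRT15 libraries and 46.8, 48.7 and 46.9 CPM in the shNC libraries. These groups did not overlap, but the difference was small (0.15 ± 0.08, SE, adjusted p = 0.145). The plasma membrane importers SLC39A1 (-0.11) and SLC39A3 (0.13), the Golgi importers SLC39A9 (0.06) and SLC39A13 (0.06), and SLC39A4 (0.24), the importer of dietary zinc in the intestine, had overlapping groups and were not called, with adjusted p of 0.222 to 0.653. GC and length correction made SLC39A1 a lower call (-0.22, adjusted p = 0.000692), and 71.3% of the 50-base windows of its transcript also belong to the readthrough gene AL358472.7. SLC39A12, an importer of the brain, had 0 reads over the shKRT15 libraries and 11 over the shNC libraries and was under the filter.

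Levels of different genes were compared as CPM per kilobase of the principal GENCODE transcript. MT2A was first in both groups, at 391 ± 15.7 in shKRT15 and 803 ± 21.0 in shNC (SD, n = 3 each). SLC39A1 and SLC39A14 followed in both groups, each apart from its neighbours in every library. SLC30A1 and SLC39A7 came next, at 41.8 and 39.1 in shKRT15 and at 42.5 and 48.3 in shNC, and their ranges overlapped in both groups. MT1X stood at 19.5 in shKRT15 and 28.8 in shNC, in the range of the middle ZIP genes. SLC30A4 was at 1.24 in shKRT15, where it overlapped MT1F, and at 0.311 in shNC, where it was apart from its neighbours. The order in the upper part of the list was thus much alike in both groups, and the fall of MT2A did not take it from the first place.

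The base composition of the members varied with their calls, and its part in the results was not tested. The GC content of the longest transcript was 36.2 to 55.1% (median 44.6%) for the 10 members that fell, 40.0% for SLC30A4 and 37.7 to 62.8% (median 54.8%) for the 11 not called. Over 13667 tested genes, the Spearman correlation of log2 fold change with GC content was 0.254, a description across genes that share these libraries. After GC and length correction, 11 members were called lower and 2 higher. MT2A, MT1X, SLC30A4, SLC30A5, SLC30A7, SLC39A6, SLC39A7, SLC39A10, SLC39A11 and SLC39A14 were called in the same direction under each of the 17 other settings compared.

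**Figure D5:**
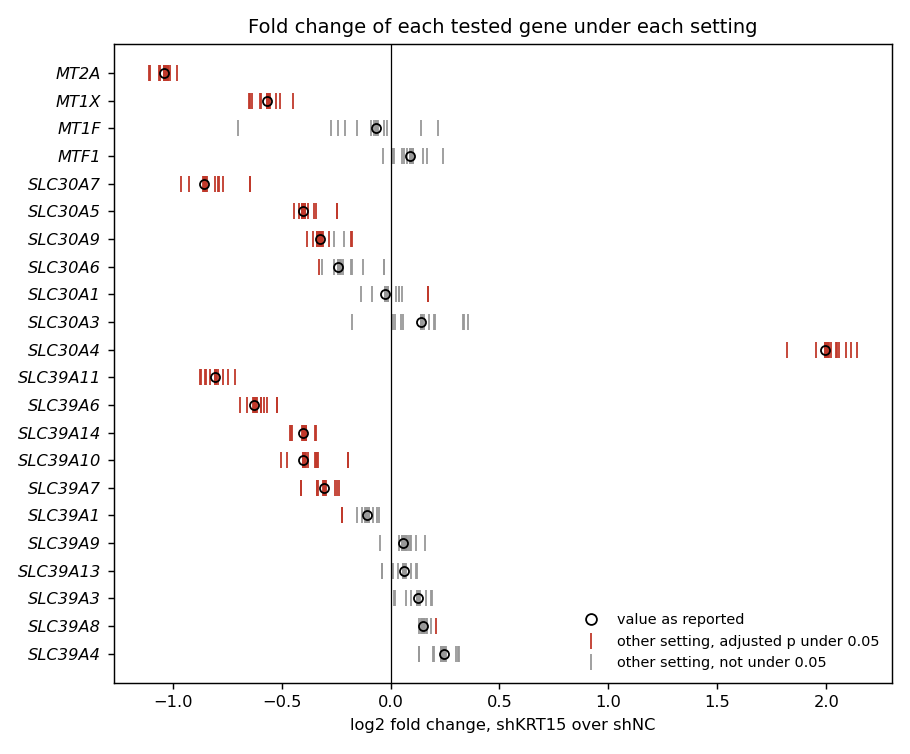
Log2 fold change of each tested member as reported (open circles) and under each other setting (ticks; red where the adjusted p was under 0.05, grey where not). The ticks of SLC30A4 lie between 1.82 and 2.14 and those of MT2A between -1.11 and -0.98, while those of MTF1 and SLC30A1 lie on both sides of 0.

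Other genes of zinc handling were also called in both directions. Of 12 tested, 1 rose and 7 fell, 66.7% of the list against 45.0% of all tested genes, at a median of -0.54. TMEM163, a zinc exporter of vesicles and the plasma membrane, rose by 0.81 ± 0.19 on the log2 scale (SE, adjusted p = 0.00227). SLC11A2, the proton-coupled carrier of iron and other divalent metals, fell to 95.2 ± 3.35 CPM in shKRT15, against 158 ± 2.32 CPM in shNC (SD, n = 3 each; adjusted p = 1.70e-07). GPR39, a receptor that senses extracellular zinc, fell by 0.42 ± 0.08 (SE, adjusted p = 0.000419), and the log2 fold change of the zinc chaperone gene CBWD3 was -1.51 ± 0.32 (SE, adjusted p = 0.00108). The falls included 4 near-identical copies, CBWD1, CBWD2, CBWD3 and CBWD6, whose separate counts are uncertain and which are not independent members of the list.

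Of 13 tested genes of copper handling, 2 fell, so that 15.4% of the list was called against 45.0% of all tested genes, at a median of -0.06. None rose by edgeR, DESeq2 or limma-voom, while 1 was higher at an unadjusted p under 0.05. With edgeR, 1 was called higher under total-count scaling, 1 with the replicate block, 1 with that block after GC and length correction, and 2 without shNC replicate 3. The genes that fell were the copper transporter SLC31A2, at 22.2 ± 0.702 CPM in shKRT15 and 42.1 ± 3.68 CPM in shNC (SD, n = 3 each; adjusted p = 5.07e-07), and the main copper importer SLC31A1 (-0.33 ± 0.08, SE, adjusted p = 0.00213). The chaperones and pumps of the list, such as ATOX1 (-0.05) and ATP7A (-0.15), were not called.

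HMOX1 and SQSTM1 led the falls among genes of the response to metals and oxidants, a list that includes regulators of that response. Of 13 tested, 1 rose and 7 fell, 61.5% of the list against 45.0% of all tested genes, at a median of -0.34. HMOX1, the inducible haem oxygenase, was at 43.2, 43.5 and 42.4 CPM in the shKRT15 libraries and at 112, 116 and 113 CPM in the shNC libraries (-1.40 ± 0.07, SE, adjusted p = 1.18e-10). SQSTM1 (-1.08 ± 0.07, SE) and the regulator NFE2L2 (-0.61 ± 0.07, SE) fell as well, and KEAP1, its inhibitor, rose by 0.28 ± 0.08 (SE, adjusted p = 0.00917; 0.18 after GC and length correction). The oxidant-response genes SLC7A11 (-0.56, adjusted p = 0.0108) and GCLC (-0.34, adjusted p = 0.00861) also fell, with overlapping groups for SLC7A11. NQO1 (0.09), TXNRD1 (-0.12), GCLM (-0.06) and SRXN1 (-0.14) were not called.

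Cytokine and glucocorticoid genes that bear on metallothionein induction were also mixed. Of 13 tested, 2 rose and 7 fell, 69.2% of the list against 45.0% of all tested genes, at a median of -0.31. IL1B (-5.61 ± 0.14, SE), IL6 (-2.64 ± 0.07, SE) and LIF (-1.08 ± 0.07, SE) had the smallest p-values among the falls. FKBP5, a glucocorticoid-induced gene, rose by 0.92 ± 0.11 (SE, adjusted p = 3.63e-06), while TSC22D3 (0.04), PER1 (0.05) and GLUL (0.15, adjusted p = 0.0906), also glucocorticoid-induced, were not called. The groups did not overlap for GLUL. STAT3 rose by 0.20 ± 0.08 (SE, adjusted p = 0.0449). That call was lost without shKRT15 replicate 1 or 3 or shNC replicate 1 or 3 (adjusted p = 0.0551 to 0.161) and after GC and length correction (adjusted p = 0.171).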

How the data were processed

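RNA of 6 TPC-1-Len cultures was sequenced. The deposited table gave raw read counts per gene without normalization, on GRCh38 per the submitters' processing notes. Aligner, counter, annotation and use of strand: not given in the sources used here. Groups came from the library titles. The design text speaks of biological replicates and does not say whether transfections were separate, so the p-values may cover technical spread alone. Counts of every library pair differed by more than sampling noise (chi-square over its degrees of freedom, 6.05 to 29.0 within groups, 169 to 195 between them).

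All rows were fitted together with edgeR 4.0.16 in R 4.3.3 by the quasi-likelihood test (robust, TMM scaling, group as the only term). The low-count filter was filterByExpr (minimum count 10, minimum total 15) and left 14356 genes, over which p-values were adjusted by Benjamini-Hochberg. A call means an adjusted p under 0.05. Unless another tool is named, adjusted p-values come from this fit. Log2 fold changes compare shKRT15 with shNC, and their SE is the size of the change over the square root of F. The fit was tested on simulated data. Genes were matched by Entrez ID to GENCODE release 29 and RefSeq, all 27 members included.

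Members and lists were chosen with earlier results of these data known. Called members with a mean of at least 1 CPM, MTF1, SLC30A1 and metallothioneins with 10 reads in a library are given by library. Of the other lists, the called genes with the 3 smallest p-values in each direction are named. SLC30A3, SLC30A6, SLC39A8, ATOX1, ATP7A, NQO1, TXNRD1, TSC22D3, PER1, GLUL, CBWD1, CBWD2, CBWD6, KRT18, COL1A1, LUM, PDGFRB, DPH5, CREB3L4 and SLC30A4-AS1 were added after their values were seen. The same holds for TG, CD68, LYZ, CD3E, CD14, COL3A1, PECAM1, VWF, KDR, SLC7A11, GCLC, GCLM and SRXN1. Other settings were DESeq2 1.42.0, limma-voom (limma 3.58.1), scaling by size factors, upper quartile or total count, no low-count filter, 1 CPM in 3 libraries, protein-coding rows, a replicate block, GC and length correction with and without that block, and leaving out each library. Settings on the other lists and SLC30A4-AS1 were added after seeing the data.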

Additional observations from a re-analysis of the deposited data

How the results depend on the processing

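Of 11 called members, 10 kept their direction and call under all 17 other settings; SLC30A9 did not. Members called lower numbered 9 to 11 without a library and 9 to 11 under the other settings. Members called higher numbered 1 without each library in turn, and 2 under total-count scaling (SLC39A8 added, 0.21, adjusted p = 0.0444), 2 after GC and length correction and 2 after that correction with the replicate block (SLC30A1 added). Changes of sign among members were limited to members not called in the reported fit. SLC30A1 was at 0.0371 under total-count scaling, 0.17 after GC and length correction and 0.17 after that correction with the block (adjusted p = 0.0122), and ranged from -0.14 to 0.0518 without a library. SLC39A13 was at -0.0398 after the correction and -0.0413 with the block as well. Without a library, MT1F ranged from -0.70 to 0.22, MTF1 from -0.0351 to 0.24, SLC30A3 from -0.18 to 0.36 and SLC39A9 from -0.0483 to 0.16. The cause was not tested.

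Same-numbered libraries had correlations of deviations from the group means of -0.0017 to 0.0778. Those of libraries with different numbers were -0.0650 to 0.0317. Deviations within a small group constrain each other, so these values cannot decide whether the replicate numbers mark pairs. With the replicate number as a block, 11 members were called lower, with SLC30A6 added (-0.24, adjusted p = 0.0295; with the block after GC and length correction, -0.03, adjusted p = 0.762), and no other call of a member changed. SLC30A6 was also called without shNC replicate 3 (-0.33, adjusted p = 0.00901). Total-count scaling shifted the median of all genes by 0.06 on the log2 scale. MT1F and SLC30A3 rested on few reads and had wide intervals, and the 5 members under the filter were not tested.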
